A study of Mus musculus with 6 samples.

Results

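Fos, Fosl1 and Jun are the subunits of the transcription factor AP-1 that appear in a deposited table of 149 genes, and they were found there by their symbols. All 3 were chosen with their measured values known, and the table holds only genes past limits on the difference between the 2 groups of mice compared here. That difference is therefore given as a description, without a test.

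Both groups were wild-type male C57BL/6 mice in which the left anterior descending coronary artery was closed for 45 min and reopened for 24 h of reperfusion (IR). In the TMAO+IR group the drinking water also held 0.12% trimethylamine N-oxide (TMAO), taken freely for 4 weeks beforehand and throughout the procedure. The IR group had the same operation without TMAO. Polyadenylated RNA from the reperfused region of the heart was sequenced in 3 TMAO+IR and 3 IR libraries, and hearts without ischaemia were not analysed here.

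TMAO is made in the liver from trimethylamine, a product of gut bacteria that degrade choline and carnitine. AP-1 is a dimer of basic leucine zipper proteins of the Fos and Jun families that binds DNA at the sequence TGACTCA and at close variants of it. Jun can pair with itself or with Fos proteins, whereas Fos proteins need a Jun partner. Fos and Jun are immediate early genes, transcribed within minutes of growth factor, cytokine, stretch or oxidant signals through kinases that act on factors already in the cell, and both are induced in the heart by ischaemia and reperfusion. Fosl1 encodes Fra-1, which lacks the transactivation domain that Fos carries at its carboxy terminus and is usually induced later than Fos.

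Promoter windows are shown for Fos and Jun, since Fosl1 had none in the set used. They were taken from RefSeq on GRCm38.p6 and run from 250 bases before to 50 bases after the annotated start, and 2 of the 3 genes had a window. The Fos window lies at chr12:85473640-85473939 on the plus strand, and the Jun window at chr4:95052173-95052472 on the minus strand. Capitals mark, in Fos, the cyclic AMP response element core TGACGT and the TATA box TATAAA. In Jun they mark the AP-1-like sequences TTACCTCA and TGACATCA and a MEF2 site. In human cells the AP-1-like sequences of the JUN promoter are known to be bound by Jun and ATF2.
Fos: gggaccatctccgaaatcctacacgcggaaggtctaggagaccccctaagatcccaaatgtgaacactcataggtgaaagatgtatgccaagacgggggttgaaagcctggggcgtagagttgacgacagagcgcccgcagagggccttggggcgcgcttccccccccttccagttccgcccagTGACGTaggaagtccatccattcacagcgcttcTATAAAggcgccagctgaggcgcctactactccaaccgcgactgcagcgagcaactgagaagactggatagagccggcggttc
Jun: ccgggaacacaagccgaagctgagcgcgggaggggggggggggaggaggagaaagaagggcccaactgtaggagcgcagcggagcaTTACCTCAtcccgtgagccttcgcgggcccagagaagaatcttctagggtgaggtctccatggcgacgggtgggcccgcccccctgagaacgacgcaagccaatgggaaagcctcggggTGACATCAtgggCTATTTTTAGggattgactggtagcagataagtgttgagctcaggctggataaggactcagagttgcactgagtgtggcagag
The first base of TGACGT stood 66 bases before the Fos start (position -66) and that of TATAAA at position -33. In Jun, TTACCTCA began at position -164, TGACATCA at position -45 and the MEF2 site at position -33. On both strands, TGACGT occurred in 7.55% of all 32544 windows, TATAAA in 13.6%, TGACATCA in 3.37%, TTACCTCA in 0.897% and the MEF2 site in 0.559%. Jun also held a CCAAT box, which occurred in 37.4% of windows, and both genes held the GC box GGGCGG on the opposite strand, which occurred in 35.9%. The letters of the full element TGACGTCA, which contains TGACGT, were in neither window (1.80% of all windows), nor were those of the canonical AP-1 site TGACTCA (5.19%), the E box CACGTG (7.17%) or the serum response CArG box (1.64%). The GC content was 58.7% in the Fos window and 60.0% in the Jun window, against a median of 53.0% over all windows. Sequence more than 250 bases before the start was not searched, so nothing is said of motifs there. The motifs were chosen with these sequences known, and a match is a description of letters only.

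The 3 genes lie on different chromosomes and have different structures. In GENCODE release M21 on GRCm38, Fos (ENSMUSG00000021250) occupies chr12:85473890-85477273 on the plus strand, with a longest transcript of 2108 bases in 4 exons. Fosl1 (ENSMUSG00000024912) occupies chr19:5447547-5455946 on the plus strand, with 3 annotated transcripts of 1864, 496 and 357 bases, the longest in 4 exons. Jun (ENSMUSG00000052684) occupies chr4:95049034-95052222 on the minus strand and is a single exon of 3189 bases. The longest Fosl1 transcript shares 1163 of its bases, 62.4%, with exons of Ccdc85b on the opposite strand, and Jun shares 232 bases, 7.28%, with its antisense transcript Junos. The library protocol in the labels names no step that marks the strand, so reads of these pairs cannot be told apart. Ccdc85b and Junos were not analysed here.

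The mRNA ends are shown because pentamers ATTTA in the 3' untranslated region are a known signal for rapid mRNA decay in transcripts such as that of Fos. For each gene the first stretch of 30 bases that holds the most pentamers is printed, with the pentamers in capitals. They lie at chr12:85477090-85477119 on the plus strand for Fos, chr19:5455854-5455883 on the plus strand for Fosl1 and chr4:95049210-95049239 on the minus strand for Jun.
Fos: aacgtttttattgtgttttcaATTTATTTA
Fosl1: agcctccaccgcaagggcagctgctATTTA
Jun: gtgatcATTTAtaatcataggaaagATTTA
The Fos 3' untranslated region held 4 pentamers in 815 bases, or 4.91 per kilobase, and 1 of them lay in a longer AU-rich nonamer. Jun held 4 in 1233 bases, or 3.24 per kilobase, without the nonamer. Fosl1 held 1 in 638 bases, or 1.57 per kilobase, also without the nonamer. Over 19757 protein-coding genes the median was 1.35 per kilobase, and 17.1% of genes held the nonamer, so Fos and Jun lay above that median and Fosl1 close to it. Among listed genes with a usable region, the 115 that were higher in TMAO+IR had a median of 2.25 pentamers per kilobase and the 24 that were lower had 0.178. These sets were split on the same contrast that the list was selected on, and the difference between them was not tested.

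Fos was the most abundant of the 3 mRNAs. Its level, in fragments scaled to transcript length and library size (FPKM), was 129, 204 and 103 in TMAO+IR replicates 1, 2 and 3, against 32.2, 60.2 and 61.4 in IR replicates 1, 2 and 3. Every TMAO+IR library lay above every IR library, and the lowest TMAO+IR value was 1.69 times the highest IR value. The means were 146 ± 52.3 FPKM in TMAO+IR and 51.2 ± 16.5 FPKM in IR (SD, n = 3 each). These FPKM values rest on 5006, 9266 and 4543 counts in TMAO+IR and 1402, 2789 and 2900 counts in IR.

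Jun, the partner with which Fos forms its best known dimer, was the next most abundant. Its FPKM was 79.7, 133 and 57.1 in TMAO+IR replicates 1, 2 and 3, against 28.6, 42.6 and 40.2 in IR replicates 1, 2 and 3. The groups did not overlap here either, with the lowest TMAO+IR value 1.34 times the highest IR value. The means were 90.0 ± 39.0 FPKM in TMAO+IR and 37.1 ± 7.46 FPKM in IR (SD, n = 3 each). The counts were 4671, 9143 and 3795 in TMAO+IR and 1889, 2985 and 2876 in IR.

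Fosl1 was the least abundant, and its groups overlapped. Its FPKM was 19.9, 13.9 and 6.36 in TMAO+IR replicates 1, 2 and 3, against 3.70, 7.52 and 4.60 in IR replicates 1, 2 and 3. TMAO+IR replicate 3 lay below IR replicate 2, at 0.846 times its value. The means were 13.4 ± 6.78 FPKM in TMAO+IR and 5.27 ± 2.0 FPKM in IR (SD, n = 3 each). The counts were 585, 502 and 247 in TMAO+IR and 106, 308 and 192 in IR, so Fosl1 was measured with far fewer fragments than Fos and Jun in each library.

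**Figure D1:**
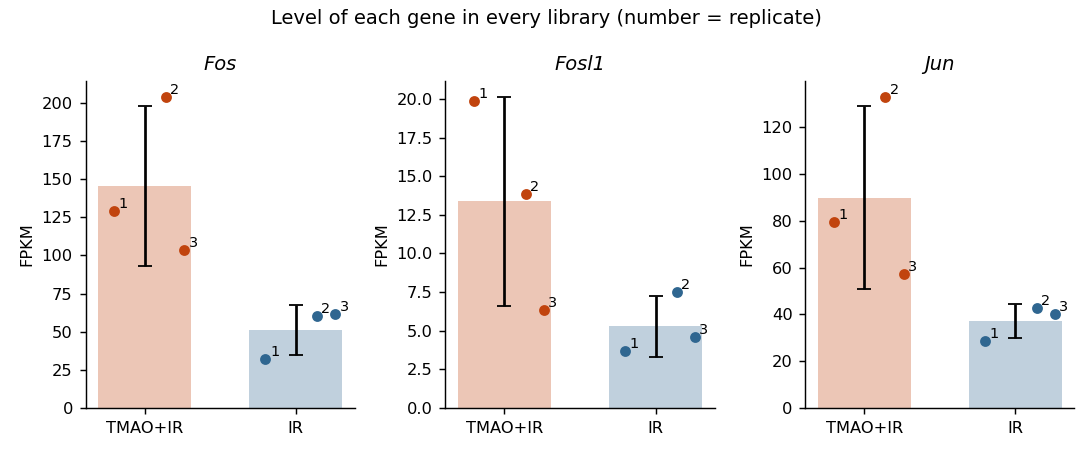
FPKM (linear axis) of Fos, Fosl1 and Jun in each library, with TMAO+IR left of IR. Points are libraries numbered by replicate, bars are means of 3 libraries and whiskers are 1 SD. For Fos and Jun all TMAO+IR points lie above all IR points, and for Fosl1 TMAO+IR replicate 3 (6.36) lies below IR replicate 2 (7.52).

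The differences were of similar size for the 3 genes. Fitted to the counts with edgeR, the log2 difference of TMAO+IR over IR was 1.51 ± 0.43 for Fos, 1.27 ± 0.37 for Fosl1 and 1.28 ± 0.42 for Jun (SE, 3 libraries per group). These correspond to 2.84-fold, 2.42-fold and 2.42-fold higher counts. The fit pools its spread over all listed genes, so the SE hardly reflects how much an individual gene varied. The SD of the log2 counts per library size shows that variation directly. It was 0.73 in TMAO+IR and 0.73 in IR for Fosl1, 0.50 in TMAO+IR and 0.53 in IR for Fos, and 0.61 in TMAO+IR and 0.31 in IR for Jun. In bulk heart tissue such as this, fewer cells of a type and less RNA per cell cannot be told apart.

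The values that placed the genes in the list come from the authors' deposited table. That table gives Fos a log2 fold change of 1.51 with a false discovery rate (FDR) of 0.00167. In the authors' deposited table Jun has 1.28 and 0.00591 for these quantities, and Fosl1 has 1.34 and 0.0406. All 3 genes stayed within an FDR of 0.05 and had a log2 fold change of 1 or more in size, as did 100% of the listed genes, and all 3 were higher in TMAO+IR, as were 81.9% of the list. The 100% follows from how the list was made. The limits hold for either direction and so do not set the 81.9%, but nothing is read from either share. Ordered by FDR, Fos was number 26 of 149, Jun number 59 and Fosl1 number 141, so Fosl1 was close to the limit. In the authors' deposited table its neighbours were Sfrp2, a secreted Wnt-binding protein, with an FDR of 0.0406 and a log2 fold change of -1.34, and Tlr9, a receptor for unmethylated DNA, with 0.0413 and 1.11. The last gene inside the limit in the authors' deposited table was Aim2, a sensor of cytosolic DNA, with 0.0487. Genes outside the limits were not analysed here.

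Fos and Jun ranked higher in the list by level than by size of difference. By mean FPKM over 6 libraries, Fos was number 4 of 149, Jun number 9 and Fosl1 number 42. By log2 difference from the counts they were numbers 23, 44 and 45, in the order Fos, Jun and Fosl1. The median log2 difference over the list, which holds 122 higher and 27 lower genes, was 1.16. Groups that did not overlap, as in Fos and Jun, were seen in FPKM in 77.9% of the listed genes with TMAO+IR higher, and in 80.5% in counts scaled to library size, while the groups of Fosl1 overlapped on both scales. Since the list was selected on this contrast, nothing is read from these shares. Together the 3 genes made up 5.92%, 8.13% and 6.08% of all counts of listed genes in TMAO+IR replicates 1, 2 and 3, against 4.64%, 5.48% and 8.07% in IR replicates 1, 2 and 3. As a share of this list the groups overlapped, with IR replicate 3 close to the highest TMAO+IR library.

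**Figure D2:**
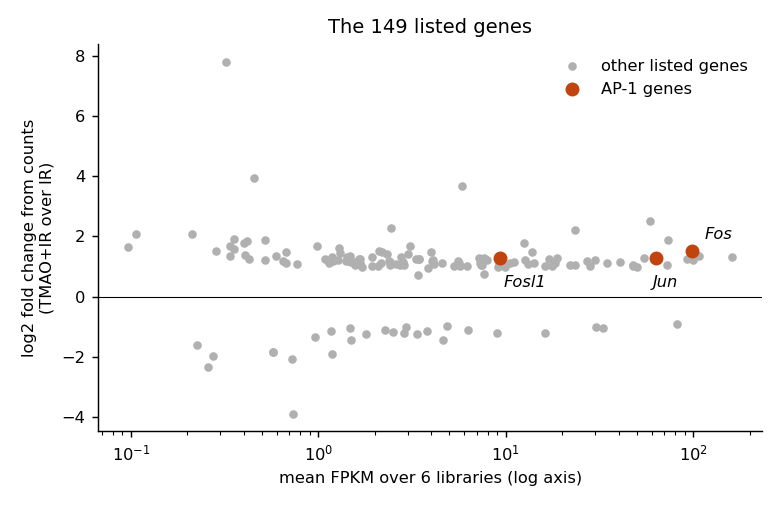
Log2 difference of TMAO+IR over IR from the counts (linear axis) against mean FPKM over 6 libraries (log axis) for the 149 listed genes, grey, with Fos, Fosl1 and Jun in orange. The 3 genes lie between 1.27 and 1.51 on the vertical axis, near the list median of 1.16, and Fos and Jun lie far to the right.

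The order of the levels was Fos, then Jun, then Fosl1 in all 6 libraries. The genes were found by their symbols and not by this order, but their values were known beforehand. The order rests on scaling to length. Unscaled, Jun had more counts than Fos in IR replicates 1 and 2 (1889 against 1402 and 2985 against 2789), and fewer in the other libraries. Reads of Ccdc85b and Junos may also be included in the levels of Fosl1 and Jun. The ratio of Jun FPKM to Fos FPKM was 0.617, 0.652 and 0.552 in TMAO+IR replicates 1, 2 and 3, against 0.891, 0.707 and 0.656 in IR replicates 1, 2 and 3. Jun was thus below Fos in each library, and all 3 TMAO+IR ratios lay below the lowest IR ratio, although TMAO+IR replicate 2 and IR replicate 3 nearly met. On the log2(FPKM + 0.1) scale the level of Jun minus that of Fos averaged -0.57 ± 0.23 (SD, n = 6 libraries), or 1.49-fold lower.

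Fosl1 was further apart from both. The ratio of Fos FPKM to Fosl1 FPKM was 6.49, 14.7 and 16.3 in TMAO+IR replicates 1, 2 and 3, against 8.69, 8.0 and 13.3 in IR replicates 1, 2 and 3. The log2 level of Fos minus that of Fosl1 averaged 3.39 ± 0.54 (SD, n = 6 libraries), or 10.5-fold higher, and that of Jun minus Fosl1 averaged 2.82 ± 0.48, or 7.05-fold higher. Each of the 3 level differences had the same direction in 6 of 6 libraries and p = 0.03125 in an exact 2-sided permutation test with sign flips within libraries. This is the smallest p that 6 libraries allow, and it was 0.03125 after Benjamini-Hochberg adjustment over the 3 pairs. Within either group alone 3 libraries cannot go below 0.25 in this test. At the smallest possible value, these p-values reflect only that all 6 libraries of both groups shared a direction, not the size or spread of the differences. The labels do not say that the libraries came from separate animals, so the p-values concern libraries only, whose variation may be technical.

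The FPKM of Fosl1 rested on a length that changed between libraries. Dividing the count by the FPKM and by the library size gives the transcript length that the FPKM implies. For Fos and Jun this length was between 99.9% and 100.1% of the longest transcript in every library. Jun is itself among the single-transcript genes that set the absolute library sizes, so its closeness to 100% is partly built in. For Fosl1 it was 85.9%, 90.2% and 100% in TMAO+IR replicates 1, 2 and 3, against 74.3%, 99.9% and 99.8% in IR replicates 1, 2 and 3. The shortest lengths were in replicate 1 of each group and in TMAO+IR replicate 2, so the change did not follow the groups. Of 86 genes whose FPKM was 1 or more throughout, 46 varied more than 1.05-fold in this way, among them none of the 12 with a single annotated transcript, and 12 varied at least as much as Fosl1.

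With 1 fixed length for Fosl1, its FPKM was 17.1, 12.5 and 6.36 in TMAO+IR replicates 1, 2 and 3, against 2.75, 7.51 and 4.59 in IR replicates 1, 2 and 3. The means were then 12.0 ± 5.38 in TMAO+IR and 4.95 ± 2.40 in IR (SD, n = 3 each), a log2 ratio of 1.28. The log2 ratio in the authors' deposited table, from FPKM with the changing length, was 1.34. TMAO+IR replicate 3 still lay below IR replicate 2, at 0.847 times its value. What the shorter implied lengths come from was not tested.

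**Figure D3:**
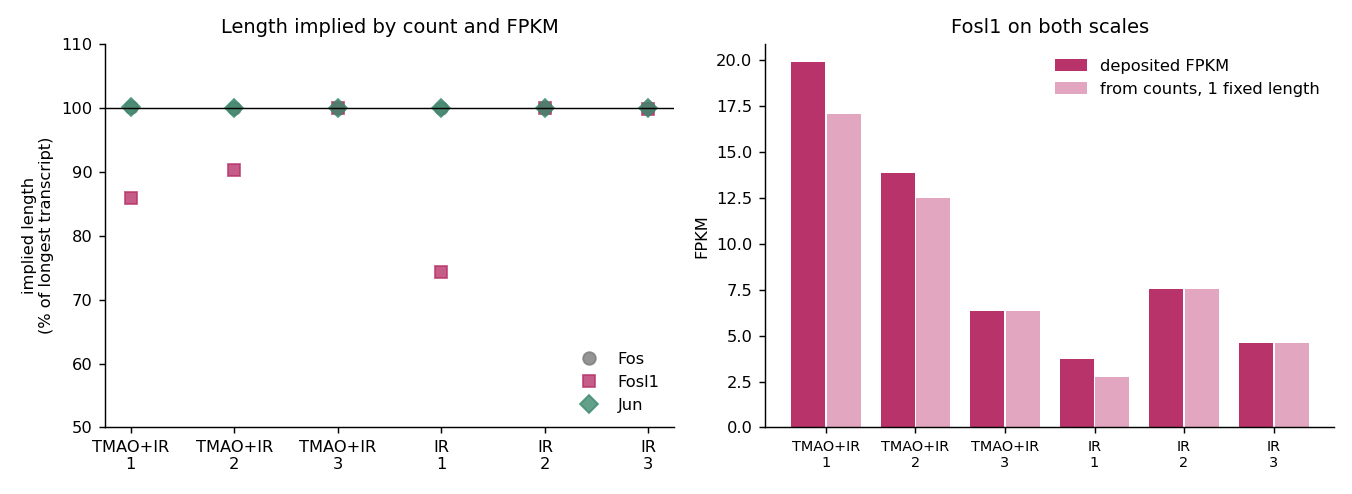
Left, transcript length implied by count, FPKM and library size, as a percentage of the longest annotated transcript, for Fos, Fosl1 and Jun in each library. Right, Fosl1 as deposited (dark bars) and recomputed from counts with 1 fixed length (light bars). Fos and Jun lie at 100%, while Fosl1 lies at 85.9% and 90.2% in TMAO+IR replicates 1 and 2 and at 74.3% in IR replicate 1.

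Within TMAO+IR, Fos and Jun shared 1 order of libraries and Fosl1 followed another. In TMAO+IR, Fos and Jun were highest in replicate 2, as were 60 of the 149 listed genes (40.3%), and Fosl1 was highest in replicate 1, as were 62 (41.6%). In IR, Jun and Fosl1 were highest in replicate 2, as were 98 listed genes (65.8%), whereas Fos was highest in replicate 3, as were 13 (8.72%). Fos differed little between IR replicates 2 and 3, at 60.2 and 61.4 FPKM. The highest value was 1.97 times the lowest in TMAO+IR and 1.91 times in IR for Fos. For Jun these ratios were 2.33 in TMAO+IR and 1.49 in IR, and for Fosl1 they were 3.13 in TMAO+IR and 2.03 in IR.

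The profiles over the 6 libraries were compared by the root mean square difference of log2(FPKM + 0.1), each profile centred on its own mean. The nearest genes to Fos were Gdf15, a stress-induced cytokine of the TGF-beta family, at 0.18, Egr1, a zinc finger immediate early factor, at 0.21, and Jun at 0.21, against a median of 0.55 over the list. The nearest to Jun were Egr1 at 0.08, A730049H05Rik at 0.18 and Ch25h, which encodes cholesterol 25-hydroxylase, at 0.19, against a median of 0.46. A730049H05Rik was near the floor, from 7 counts (0.15 FPKM) in IR replicate 1 to 41 counts (0.85 FPKM) in TMAO+IR replicate 2. The added 0.1 therefore weighs on its profile, and its place is uncertain. The nearest to Fosl1 were Asb4, an ankyrin repeat and SOCS box protein, at 0.19, and Edn1, the precursor of endothelin-1, and Mid1, a ubiquitin ligase, both at 0.24, against a median of 0.54. Fosl1 was number 56 in nearness to Fos and number 65 in nearness to Jun. It was therefore no nearer to its AP-1 relatives than many other listed genes were.

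These distances include the difference between the groups, on which all listed genes were selected. Each profile was next centred on its group means, so that only differences between libraries within groups count. The nearest to Fos were then Egr1 at 0.13, Jun at 0.15 and Gdf15 at 0.18. The nearest to Jun were then Egr1 at 0.08, Fos at 0.15 and Ch25h at 0.16, and the nearest to Fosl1 were Asb4 at 0.18, Mid1 at 0.23 and Edn1 at 0.24. Fosl1 was number 71 in nearness to Fos and number 77 in nearness to Jun. The points compared are 6 libraries that every gene shares, so this likeness is a description.

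**Figure D4:**
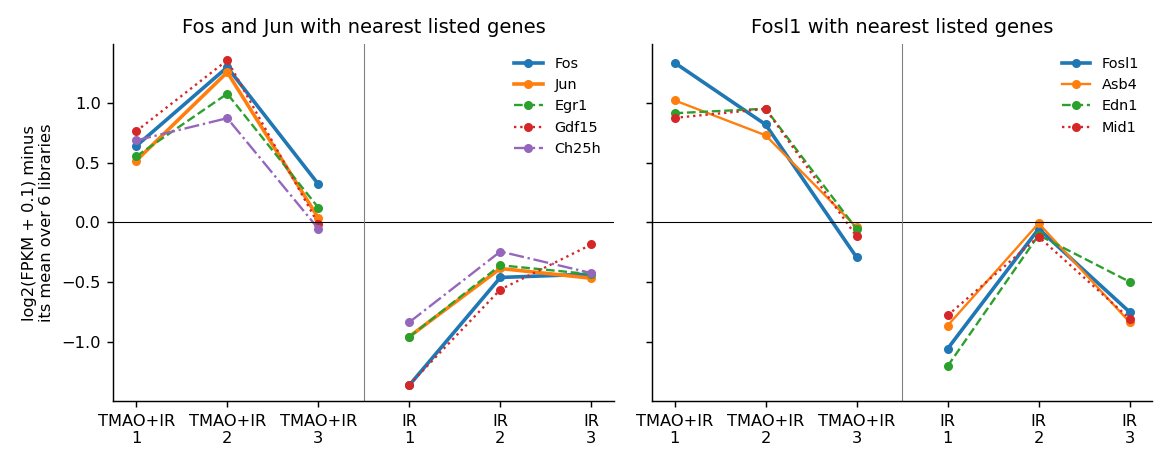
Log2(FPKM + 0.1) minus its mean over 6 libraries, in each library, TMAO+IR left of IR. Fos and Jun (left) and Fosl1 (right) are drawn with their nearest listed genes, except A730049H05Rik, which is not drawn. Fos, Jun, Egr1, Gdf15 and Ch25h peak in TMAO+IR replicate 2, whereas Fosl1 and Asb4 are highest in TMAO+IR replicate 1, and Edn1 and Mid1 in TMAO+IR replicate 2.

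Egr1, nearest to Jun by both measures, shows how close the profiles were. Its FPKM was 122, 176 and 90.6 in TMAO+IR replicates 1, 2 and 3, against 42.7, 64.8 and 61.5 in IR replicates 1, 2 and 3. As in Jun, replicate 2 was highest in both groups and IR replicate 1 was lowest of all. Asb4, nearest to Fosl1, had 16.7, 13.6 and 7.95 FPKM in TMAO+IR and 4.45, 8.14 and 4.54 FPKM in IR. As in Fosl1, TMAO+IR replicate 1 was highest and TMAO+IR replicate 3 lay just below IR replicate 2 in FPKM. Edn1 and Mid1, the next nearest to Fosl1, were instead highest in TMAO+IR replicate 2, as Fos and Jun were.

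The other genes of the AP-1 pathway were counted from lists of known members, which were drawn up with earlier results of these data known. Of 19 AP-1 family genes, 3 were listed, namely Fos, Fosl1 and Jun. The others, among them Fosb, Fosl2, Junb, Jund and Atf3, were outside the table and were not analysed here. Of 44 kinases and factors that act upstream of AP-1, 2 were listed, both higher in TMAO+IR, as were 81.9% of the whole list. Rps6ka3, the ERK-activated kinase RSK2, averaged 19.5 ± 4.13 FPKM in TMAO+IR and 8.64 ± 3.81 FPKM in IR, a log2 difference of 1.12 from the counts. Jak2, a tyrosine kinase of cytokine receptors, averaged 17.9 ± 4.22 FPKM in TMAO+IR and 8.48 ± 2.42 FPKM in IR, a log2 difference of 1.09 (SD, n = 3 each). Of 24 genes that feed back on AP-1 signalling, such as the dual specificity phosphatases, none was listed.

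Of 33 other immediate early genes, 5 were listed, all higher in TMAO+IR, as were 81.9% of the whole list. Their median log2 difference was 1.17, beside 1.16 for the whole list, which includes 27 lower genes. Egr1 averaged 129 ± 42.9 FPKM in TMAO+IR and 56.4 ± 11.9 FPKM in IR, a log2 difference of 1.25. Klf6, a Kruppel-like factor, averaged 56.6 ± 16.8 FPKM in TMAO+IR and 25.0 ± 8.95 FPKM in IR, a log2 difference of 1.16. The other three were transcription factors at lower levels. The log2 difference was 1.17 for Nr4a3, 1.25 for Egr3 and 1.11 for Nr4a2, whose means were 15.3, 4.87 and 2.26 FPKM in TMAO+IR and 6.85, 2.05 and 1.06 FPKM in IR.

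Of 50 genes known as AP-1 targets, 8 were listed, all higher in TMAO+IR, as were 81.9% of the whole list. Their median log2 difference was 1.28, beside 1.16 for the whole list, which includes 27 lower genes. Il6, an inflammatory cytokine, averaged 48.0 ± 4.45 FPKM in TMAO+IR and 21.3 ± 2.59 FPKM in IR, a log2 difference of 1.13. Its libraries within each group lay closer together than those of the AP-1 genes, with the highest 1.2 times the lowest in TMAO+IR and 1.28 times in IR. Myh7, the slow myosin heavy chain that is re-expressed in stressed adult mouse heart, averaged 37.8 ± 16.2 FPKM in TMAO+IR and 9.24 ± 3.13 FPKM in IR, a log2 difference of 2.2. Unlike Fos and Jun, Myh7 was highest in TMAO+IR replicate 3, at 56.5 FPKM, where both AP-1 genes were lowest for that group. Ptgs2, which makes prostaglandins, had a log2 difference of 1.23, and Lif, a cytokine of the Il6 family, 1.25. Edn1 had 1.25 and Inhba, a subunit of activin, 1.69. The other listed targets were Tnc and Pmaip1. No binding of AP-1 to these genes was measured.

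The pathway annotation in the authors' deposited table placed the 3 genes together in 3 KEGG terms. These were IL-17 signaling, with 7 listed genes (Cxcl5, Fos, Fosl1, Hsp90aa1, Il6, Jun and Ptgs2), HTLV-I infection, with 6, and osteoclast differentiation, with 4. All listed genes of these terms were higher in TMAO+IR, as were 81.9% of the whole list, and each term includes Fos, Fosl1 and Jun themselves. Fos carried 35 terms, Jun 47 and Fosl1 4, so Fosl1 carried the fewest. The MAPK signaling term, which holds many regulators of AP-1, listed Fos, Jun and Rps6ka3 only.

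The tissue could not be checked against its own cells, because none of the defining markers of cardiomyocytes, fibroblasts, endothelial cells, smooth muscle or lymphocytes was in the table. They were not analysed here. Over all cell types, 5 of 54 markers were listed. Of 8 neutrophil markers, Mmp8 and Slfn4 were listed, and their summed FPKM ranged over 12.2 to 14.6 in TMAO+IR and 4.40 to 8.06 in IR. Of 8 monocyte and macrophage markers, Ccr2 and Chil3 were listed, with sums of 2.77 to 6.11 in TMAO+IR and 1.06 to 1.83 in IR. Of 4 erythrocyte markers, Slc4a1 was listed, at 0.08 to 0.16 FPKM in TMAO+IR and 0.23 to 0.49 FPKM in IR. The 4 listed leukocyte markers were thus higher in the same group as Fos, Fosl1 and Jun, as were 81.9% of the whole list, and the other leukocyte markers were not analysed here. The part of these cells in the AP-1 values was not tested.

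**Figure D5:**
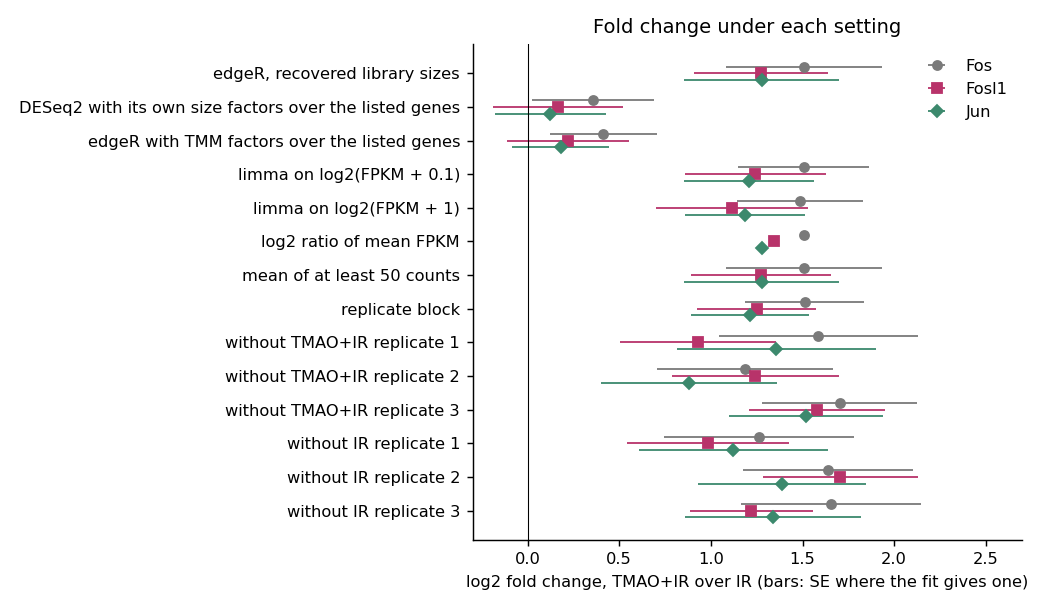
Log2 difference of TMAO+IR over IR (linear axis) for Fos, Fosl1 and Jun under each way of computing it. Whiskers are 1 SE where the fit gives one. Values lie between 0.88 and 1.70 except where the libraries were scaled to the listed genes themselves, where they lie between 0.12 and 0.41.

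The size of these differences depended on the scaling of the libraries. Scaling to the listed genes, most of which were higher in TMAO+IR, moved the list median by -1.06 with DESeq2 and -1.01 with edgeR TMM factors. The log2 differences were then 0.36 ± 0.33 and 0.41 ± 0.29 for Fos (SE, 3 libraries per group). They were 0.17 ± 0.36 and 0.22 ± 0.33 for Fosl1, and 0.12 ± 0.30 and 0.18 ± 0.26 for Jun. All were positive, but those of Fosl1 and Jun were smaller than their SE, so their direction is not resolved under these scalings. Fos lay above the median of the list by 0.35 with the recovered library sizes, 0.26 with DESeq2 and 0.27 with TMM factors. Jun lay above it by 0.12, 0.03 and 0.04 under the same scalings, and Fosl1 by 0.12, 0.07 and 0.08. The places of Jun and Fosl1 were not stable when 1 library was left out. Jun minus the median was -0.18 without TMAO+IR replicate 2 and -0.03 without IR replicate 1. Fosl1 minus the median was -0.15 without TMAO+IR replicate 1 and -0.17 without IR replicate 1. With any other library left out both stayed above the median, and Fos did so throughout. This median includes the 27 lower genes of the list.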

How the data were processed

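The sample titles gave each library its group and number, and the columns with the prefix T-IR were matched to TMAO+IR, the group other than IR. The authors deposited 1 table of 149 genes. It holds whole-number counts per gene and library as deposited, without normalization, and FPKM values from the authors' quantification. It also holds the log2 fold change, p-value and FDR that the authors deposited, and the log2 fold change is that of TMAO+IR over IR. Per the submitters' processing notes, HISAT2, StringTie 1.3.1, fastp 0.18.0, edgeR, DESeq2 and Bowtie2 2.2.8 were used with the GRCm38 build, in no stated role or order. The tool behind the p-values and the annotation release are not given in the sources used here.

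Library sizes were recovered by dividing count by FPKM in 86 genes whose FPKM was 1 or more throughout. The 12 of them with a single transcript set the absolute sizes, which ranged from 18370770 to 22441959 fragments. Counts were fitted over the whole table with edgeR 4.0.16 (quasi-likelihood, R 4.3.3) and these sizes, without further scaling, and the fit was used for sizes of difference and SE only, without a test, since the table was selected on that contrast. The fit was tested on simulated data. DESeq2 1.42.0, edgeR TMM factors, limma 3.58.1 on log2(FPKM + 0.1) and log2(FPKM + 1), a minimum mean of 50 counts, a replicate block and leaving out each library were alternatives. Levels of the 3 genes were compared with an exact permutation test on log2(FPKM + 0.1). All 149 gene identifiers matched GENCODE M21 with the same symbols. No library was a copy of another, and the labels give no batch.

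The members and gene lists were chosen with earlier results of these data known. The genes named besides Fos, Fosl1 and Jun are those listed from the lists of upstream and feedback genes, up to 6 with the highest mean FPKM from the lists of immediate early genes and AP-1 targets, and the 3 nearest profiles of each member under each centring. The listed cell type markers were named as well, and so were the listed genes of the IL-17 signaling term. Genes next to the limits of the list, Cxcl5 and Hsp90aa1 of that term, and Tnc and Pmaip1, which complete a count, were named after their values were seen. Replicate numbers were not taken as pairs. Over 117 genes the deviations of equally numbered libraries from their group means correlated at -0.31, 0.33 and -0.08 for replicate numbers 1, 2 and 3.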

Additional observations from a re-analysis of the deposited data

How the results depend on the processing

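The log2 differences of TMAO+IR over IR were positive under every alternative run. They moved beyond the replicate spread only where libraries were scaled to the listed genes, to 0.36 for Fos, 0.17 for Fosl1 and 0.12 for Jun with the size factors of DESeq2, and to 0.41, 0.22 and 0.18 with edgeR TMM factors. Under both scalings the values of Fosl1 and Jun were smaller than their SE, so their direction is not resolved there. Both scalings centre the listed genes, of which 122 were higher and 27 lower. This removes most of a difference close to the list median. With limma on log2(FPKM + 1) the list median moved by -0.33, and the values were 1.49 for Fos, 1.12 for Fosl1 and 1.19 for Jun. With replicate number as a block they were 1.51, 1.25 and 1.21. The replicate numbers do not pair the libraries, so this block is given for completeness, and it changed no direction. Leaving out 1 library at a time gave 1.18 (without TMAO+IR replicate 2) to 1.70 (without TMAO+IR replicate 3) for Fos. For Fosl1 it gave 0.93 when TMAO+IR replicate 1 was left out and 1.70 when IR replicate 2 was, and the range for Jun was 0.88 (without TMAO+IR replicate 2) to 1.52 (without TMAO+IR replicate 3).

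The level differences between genes kept their direction. In TMAO+IR libraries alone the log2 level differences were -0.72 for Jun minus Fos, 3.52 for Fos minus Fosl1 and 2.80 for Jun minus Fosl1. In IR libraries alone they were -0.42, 3.26 and 2.84, and 3 libraries cannot pass 0.05 in either group. Leaving out 1 library gave -0.65 to -0.52, 3.27 to 3.53 and 2.73 to 2.98, with a smallest possible p of 0.0625. With log2(FPKM + 1) they were -0.57, 3.23 and 2.67, and with 1 fixed length per gene -0.57, 3.52 and 2.95. The depth limits Fosl1 most, with 106 counts in IR replicate 1.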
